A study of Mus musculus with 2 samples.

Results

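Binding of Msl1 and Nsl1 was measured by ChIP-seq at the genes of the proteasome in mouse embryonic stem cells (mESCs). The genes were chosen by a rule on their symbols, with earlier results of these data known: protein-coding genes on the mm9 autosomes whose symbol begins with Psma, Psmb, Psmc, Psmd, Psme, Psmf or Psmg and a digit, which gave 49 of 21321 autosomal protein-coding genes. Psmb8, Psmb9 and Psmb10, the immunoproteasome genes, are counted among the 49 and are also described by themselves. Each antibody, anti-Msl1 (3208) and anti-Nsl1 (3130), gave 1 library. Both libraries came from untreated wt mESCs, E14, of the 129P2/OlaHsd background at passage P26. The Msl1 library was made with a NEXTFlex kit and read to 50 bases, and the Nsl1 library with a NEBNext kit and read to 36 bases, so antibody, kit and read length cannot be told apart. Of 23888517 Msl1 and 26084098 Nsl1 reads, 19483142 and 24883001 nuclear reads with a position and strand of their own were kept.

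The proteasome is the protease that degrades most proteins marked with ubiquitin. Its barrel, the 20S core, is built of alpha rings, which gate the entry, and beta rings, which hold the active sites. The 19S cap consists of ATPases that unfold substrates and of non-ATPase subunits that bind ubiquitin chains and remove them. Activators can replace the cap, chaperones assemble the particle, and the immunoproteasome genes encode exchangeable active subunits that are typical of immune cells. Msl1 and Nsl1 are subunits of the MSL and the NSL complex, which both contain the histone acetyltransferase Mof, and the question of the experiment was where each complex lies in the genome of mESCs.

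At each transcription start site (TSS) the reads within 500 bases on both sides were counted, and their density was divided by that of the flanks, which reach from 5 kb to 50 kb away in either direction, and which are called the local level. This TSS ratio needs no scaling between the libraries. Each ratio has an exact 95% interval for the ratio of 2 Poisson counts. With 1 library per antibody the intervals cover counting error only, no test between samples could be made, and a ratio of at least 3 is called high as a fixed fold. At least 20 reads in both libraries together were found in 47 of the 49 members and in 16953 of all TSSs. Psme2b-ps and Psmf1 fell below this number.

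Nsl1 was high at most proteasome genes and Msl1 at fewer. The Nsl1 TSS ratio was at least 3 in 36 of the 49 members, where 29.6% of the 16953 tested TSSs reached it. The Msl1 TSS ratio was at least 3 in 22 members, against 29.2% of all tested TSSs. With the mean of the genome in place of the local level, 42 members were high in each library. At that level 54.9% of all tested TSSs were high for Msl1 and 42.2% for Nsl1. At the local level both ratios were at least 3 in 18 members, against 14.6%. The median ratio over the 47 members with enough reads was 4.93 for Nsl1 (95% interval of the median 3.88 to 5.63, over genes) and 2.93 for Msl1 (2.485 to 3.30). The medians of all tested TSSs were 2.01 and 2.205. Without the immunoproteasome, the tissue-specific subunits and the genes that are no proteasome part, 42 members are left, of which 34 were high for Nsl1 and 20 for Msl1. The medians of the 41 of them with enough reads were 5.16 for Nsl1 and 2.995 for Msl1. Without the minimum of reads, 23.9% of all TSSs reached the fold in the Nsl1 library and 23.5% in the Msl1 library, and the counts of members did not move, since the ratios of Psmf1 and Psme2b-ps lie below 1.

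A weaker enrichment was more widespread. The interval of the Nsl1 ratio lay above 1 in 44 members, against 62.8% of all tested TSSs. The interval of the Msl1 ratio did so in 42 members, against 66.5%. The Nsl1 interval lay wholly above the Msl1 interval at 22 members, a relation that held for 13.2% of tested TSSs. The reverse held only for Psma7 among the members and for 7.7% of tested TSSs. The fold of 3 divides close values: Psmd2 had an Msl1 ratio of 2.995 and Psmc2 one of 3.11, and the intervals of both include 3.

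**Figure D1:**
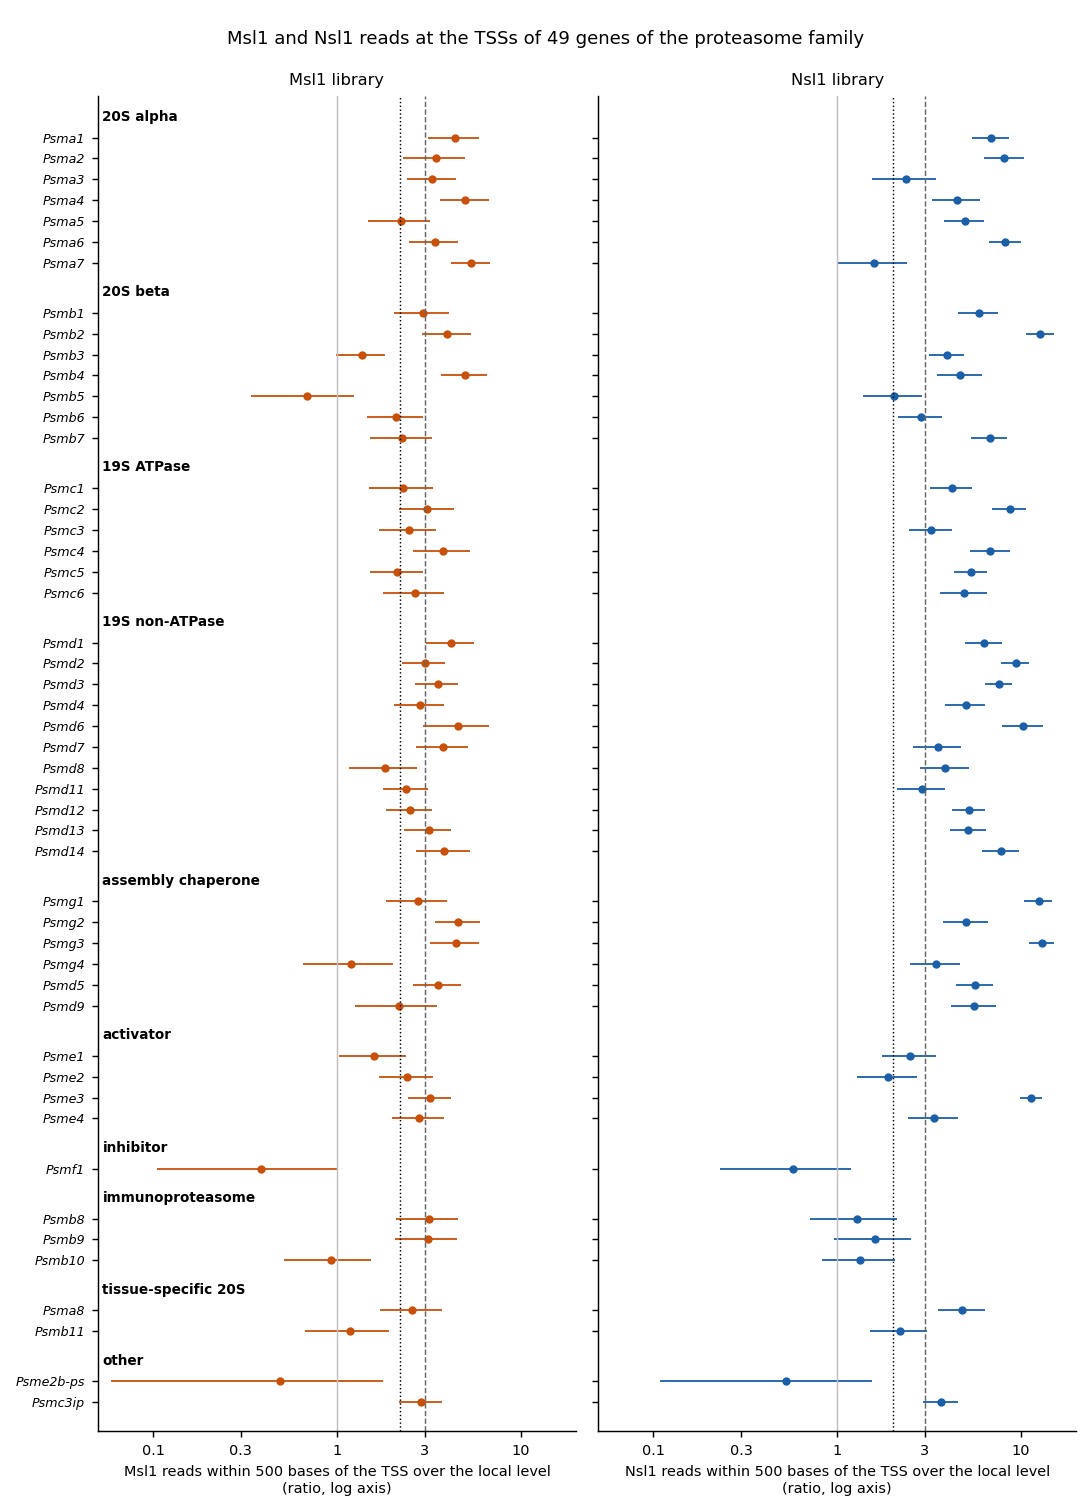
TSS ratio of each of the 49 genes in the Msl1 library (left) and the Nsl1 library (right), on log axes and grouped by role. Points are ratios over the local level, bars are exact 95% intervals for counting error, the solid line marks 1, the dashed line the fold of 3, and the dotted line the median of all tested TSSs. Nsl1 points lie right of the dashed line at 36 genes and Msl1 points at 22.

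Among the alpha subunits of the 20S core, Nsl1 was high at 5 of 7 genes and Msl1 at 6 of 7. Of all tested TSSs, 29.6% were high for Nsl1 and 29.2% for Msl1. The Msl1 count depends on the window: with 250 bases on each side it was 2 of 7, as at the beta genes, against 32.2% of all tested TSSs. With this window Psma1, Psma2, Psma3 and Psma6 lay below the fold, at 2.775, 2.375, 1.03 and 2.11. With 1000 bases on each side it was 4 of 7, against 19.3% of all tested TSSs. Psma6 and Psma2 had the highest Nsl1 ratios of this ring, 8.19 and 8.12, with Msl1 ratios of 3.40 and 3.44. At the most upstream annotated start of Psma6, the ratios were 1.01 for Nsl1 and 1.54 for Msl1. Psma1 followed with 6.885 in the Nsl1 and 4.36 in the Msl1 library. Psma5 had 4.93 for Nsl1 and 2.22 for Msl1, the only alpha gene below the Msl1 fold. Psma4 and Psma7 led the whole family in the Msl1 library. At Psma4 the window held 46 Msl1 and 48 Nsl1 reads, with ratios of 4.99 (3.63 to 6.72) and 4.47 (3.27 to 5.98). The Msl1 maximum of Psma4 lay 275 bases downstream of the TSS in intron 1. Another gene, AY074887, starts on the opposite strand 164 bases inside Psma4, so the reads of both promoters share this window.

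Psma7 and Psma3 were the alpha genes at which Msl1 was high and Nsl1 was not. Psma7 had 74 Msl1 reads, a ratio of 5.37 (4.19 to 6.79), the highest of the family, and 23 Nsl1 reads, a ratio of 1.58 (1.00 to 2.39). Its TSS lies 76 bases from that of Ss18l1, a transcription coactivator gene read in the other direction, whose own TSS window had ratios of 5.87 for Msl1 and 1.65 for Nsl1. The Msl1 maximum lay 475 bases upstream of the Psma7 TSS, on the Ss18l1 side. Psma3 had 45 Msl1 and 27 Nsl1 reads, with ratios of 3.30 (2.40 to 4.45) and 2.35 (1.54 to 3.44). The Msl1 ratio of Psma3 was 1.03 with 250 bases on each side and 2.94 with 1000. With either window Psma3 was high in neither library. Of the stretches of 36 bases in the Psma3 window, 79.8% occur once in the genome, and all of those in the Psma7 window do, and the part of repeats in the Psma3 counts was not tested.

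The Msl1 ratios of the beta subunits reached from 0.686 to 4.96, and those of the alpha subunits from 2.22 to 5.37. Of the 7 beta genes, 5 were high for Nsl1, against 29.6% of all tested TSSs. Msl1 was high at 2 of 7, or 28.6%, near the 29.2% of all tested TSSs. Psmb2, a structural beta subunit, had 147 Nsl1 and 47 Msl1 reads, with ratios of 12.7 (10.6 to 15.1) and 3.99 (2.91 to 5.34). Psmb4, also structural, was the beta gene with the most Msl1 over its local level: 52 Msl1 reads gave 4.96 (3.675 to 6.56) and 55 Nsl1 reads gave 4.665 (3.49 to 6.12). Psmb7 and Psmb1 reached 6.74 and 5.875 in the Nsl1 library and 2.27 and 2.93 in the Msl1 library. With windows of 250 bases on each side, the Msl1 ratio of Psmb7 was 0.783. Psmb3 had 91 Nsl1 reads, a ratio of 3.945 (3.16 to 4.87), and 44 Msl1 reads, a ratio of 1.36 (0.988 to 1.835), with an Msl1 local level of 32.3 reads per kb.

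Of the catalytic beta subunits Psmb7, which carries the trypsin-like activity, was high for Nsl1, and Psmb5 and Psmb6 were high in neither library. Psmb6, which carries the caspase-like activity, had 2.85 for Nsl1 and 2.10 for Msl1. Its Nsl1 ratio lay above the fold with all reads kept, at 3.14, with windows of 250 bases on each side, at 4.695, and with the genome level, at 5.86. Psmb5, which carries the chymotrypsin-like activity, had the lowest Msl1 ratio of the members with enough reads: 11 Msl1 reads gave 0.686 (0.342 to 1.23) and 32 Nsl1 reads gave 2.03 (1.39 to 2.885). Its highest Msl1 bin lay 1625 bases downstream in intron 2, at 2.63 times the local level. Psmb11, the thymus-specific relative of Psmb5, starts 7315 bases away and was also low in the Msl1 library, with 16 Msl1 reads and a ratio of 1.18 (0.672 to 1.92), and 33 Nsl1 reads and a ratio of 2.19 (1.504 to 3.10). Psma8, the testis-specific alpha subunit, had a high Nsl1 ratio of 4.78 and an Msl1 ratio of 2.57. Expression was not measured in these libraries.

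All 6 ATPase genes of the 19S cap were high for Nsl1, against 29.6% of all tested TSSs. Of them 2, or 33.3%, were high for Msl1, near the 29.2% of all tested TSSs. With all reads kept the counts for Nsl1 and Msl1 were 5 and 1, against 29.1% and 28.5% of all tested TSSs. Psmc3 then had 2.76 for Nsl1 and Psmc2 had 2.86 for Msl1. With 1000 bases on each side the counts were 4 and 1, against 14.3% and 19.3%. With the genome level they were 6 and 6, against 42.2% and 54.9%. Psmc2 had the highest Nsl1 ratio of the ATPases, 8.675, followed by Psmc4 with 6.80, Psmc5 with 5.33, Psmc6 with 4.91, Psmc1 with 4.19 and Psmc3 with 3.24. The Msl1 ratios stayed in a narrow range from 2.13 at Psmc5 to 3.78 at Psmc4, with 2.29 at Psmc1, 2.46 at Psmc3, 2.65 at Psmc6 and 3.11 at Psmc2. Neighbours in both orders have overlapping intervals.

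Of the 11 non-ATPase genes of the cap, 10 were high for Nsl1 and 6 for Msl1, against 29.6% and 29.2% of all tested TSSs. Psmd6, a subunit of the lid, was among the highest in both libraries, with 70 Nsl1 reads and a ratio of 10.3 (7.895 to 13.2) and with 26 Msl1 reads and a ratio of 4.54 (2.94 to 6.74). Psmd2 and Psmd1, the large scaffolds of the base, had Nsl1 ratios of 9.34 and 6.29 and Msl1 ratios of 2.995 and 4.17. Psmd14, the enzyme that cuts ubiquitin chains off substrates, had 7.775 for Nsl1 and 3.83 for Msl1, and Psmd3 had 7.57 and 3.53. Psmd4, a ubiquitin receptor, had 4.996 for Nsl1 and 2.81 for Msl1. Psmd12 and Psmd13 had nearly the same Nsl1 ratios, 5.18 and 5.16, with Msl1 ratios of 2.485 and 3.155. Psmd8 and Psmd7 stood at 3.88 and 3.53 in the Nsl1 library and at 1.83 and 3.79 in the Msl1 library. With windows of 250 bases on each side, the Msl1 ratio of Psmd8 was 0.4565. Psmd11 was the gene of this group that missed the Nsl1 fold, with 2.885 for Nsl1 and 2.38 for Msl1, and its Nsl1 ratio was 3.44 with windows of 250 bases on each side and 4.83 with the genome level.

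All 6 genes of assembly chaperones were high for Nsl1 and 3 of them for Msl1, against 29.6% and 29.2% of all tested TSSs. Psmg3 had 177 Nsl1 reads and a ratio of 13.0 (11.01 to 15.2), beside 47 Msl1 reads and a ratio of 4.42 (3.225 to 5.925). Psmg1, whose product pairs with that of Psmg2 to build the alpha ring, had 147 Nsl1 reads and a ratio of 12.45 (10.4 to 14.8), but 30 Msl1 reads and a ratio of 2.77 (1.86 to 3.98). Psmg2 had 57 Nsl1 and 55 Msl1 reads, with ratios of 5.03 (3.78 to 6.57) and 4.56 (3.41 to 5.98). Psmg4, the partner of Psmg3, differed from it: 44 Nsl1 reads gave 3.43 (2.48 to 4.63) and 14 Msl1 reads gave 1.19 (0.651 to 2.01). Psmd5 and Psmd9, which assemble the base of the cap, had 5.63 and 5.53 for Nsl1 and 3.55 and 2.16 for Msl1.

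Among the activators Psme3 stood apart from the others in the Nsl1 library. Its window held 240 Nsl1 reads, the most of the family, and 58 Msl1 reads, with ratios of 11.4 (9.90 to 13.0) and 3.22 (2.44 to 4.19). Psme4, the activator known from the testis and from DNA repair, had 3.36 for Nsl1 and 2.81 for Msl1. Psme1 and Psme2, which are induced by interferon and form one ring together, had Nsl1 ratios of 2.49 and 1.90 and Msl1 ratios of 1.60 and 2.40. Psme2 had 31 Nsl1 and 37 Msl1 reads, and the intervals of its ratios reach from 1.285 to 2.71 and from 1.69 to 3.33. The Msl1 maximum near Psme2 lay 875 bases upstream, on the side of Rnf31, a ubiquitin ligase gene that starts 607 bases away in the other direction and had an Msl1 ratio of 4.16 at its own TSS.

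Psmf1, the gene of a proteasome inhibitor, had few reads at the start used for it and many at another. At the more upstream start, at position 151569922 of chromosome 2 on the minus strand, 4 Msl1 and 7 Nsl1 reads gave ratios of 0.387 and 0.572. A single further protein-coding start is annotated 2876 bases downstream. There, 55 Msl1 reads gave 5.28 (3.945 to 6.93) and 185 Nsl1 reads gave 15.4 (13.1 to 17.97). That Nsl1 ratio is above those of all the other members, and its interval overlaps those of Psmg3, Psmb2, Psmg1 and Psmd6. This start was looked at after the reads had been seen, and with it 23 members were high for Msl1 and 37 for Nsl1.

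In all, 2 genes meet the rule on symbols without coding for a proteasome part. Psmc3ip, a partner protein of meiotic recombination, had 3.66 for Nsl1 and 2.87 for Msl1. Psme2b-ps, a copy of Psme2, had 2 Msl1 and 3 Nsl1 reads, with ratios of 0.489 (0.059 to 1.78) and 0.528 (0.109 to 1.55). In its window 32.6% of the stretches of 36 bases and 49.3% of those of 50 bases occur once in the genome, and their part in these counts was not tested.

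The promoters of the 5 members with the highest Nsl1 ratios and of 2 members that were low for Nsl1 are shown for comparison. The sequences are the mm9 reference, 5′ to 3′ on the strand of the gene, and end 1 base before the TSS. Capitals mark any match to one of 8 short motifs on either strand: CCGGAAG of Ets factors, GGGCGG of Sp and Klf factors (Sp/Klf), ATTGG of the factor NF-Y, TGACGT of the cAMP response element (CRE), GCATGCGC of the factor Nrf1, ATGGCGGC of the factor Yy1, TGACNNNGC of the antioxidant response element and TATAAA of the TATA box, of which the CRE and the antioxidant response element can overlap in their first letters. The intervals in mm9 are chr5:140302798-140303047 (minus strand) for Psmg3, chr4:126354624-126354873 (plus) for Psmb2, chr16:96212568-96212817 (minus) for Psmg1, chr11:101177277-101177526 (plus) for Psme3, chr14:14953499-14953748 (minus) for Psmd6, chr2:179777139-179777213 (minus, the 75 bases up to the TSS of Ss18l1) for Psma7 and chr8:108462293-108462542 (minus) for Psmb10.
Psmg3: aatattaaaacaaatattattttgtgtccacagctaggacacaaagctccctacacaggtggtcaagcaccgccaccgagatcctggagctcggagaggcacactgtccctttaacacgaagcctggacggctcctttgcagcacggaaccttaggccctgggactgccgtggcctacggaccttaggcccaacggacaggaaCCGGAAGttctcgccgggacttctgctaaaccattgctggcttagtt
Psmb2: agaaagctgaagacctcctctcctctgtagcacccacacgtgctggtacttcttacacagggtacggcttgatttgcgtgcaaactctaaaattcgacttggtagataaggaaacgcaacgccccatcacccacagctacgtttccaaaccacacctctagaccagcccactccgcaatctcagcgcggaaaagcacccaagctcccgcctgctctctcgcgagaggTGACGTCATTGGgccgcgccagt
Psmg1: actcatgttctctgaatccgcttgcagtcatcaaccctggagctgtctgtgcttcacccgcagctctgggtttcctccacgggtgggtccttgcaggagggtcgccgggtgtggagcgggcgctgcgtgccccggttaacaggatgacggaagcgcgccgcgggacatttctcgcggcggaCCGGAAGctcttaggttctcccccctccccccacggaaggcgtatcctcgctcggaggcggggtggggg
Psme3: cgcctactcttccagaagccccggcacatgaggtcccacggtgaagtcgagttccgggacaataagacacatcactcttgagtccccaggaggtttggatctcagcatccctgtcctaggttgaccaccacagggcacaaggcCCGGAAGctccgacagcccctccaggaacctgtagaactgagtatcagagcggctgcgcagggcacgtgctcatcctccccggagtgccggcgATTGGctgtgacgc
Psmd6: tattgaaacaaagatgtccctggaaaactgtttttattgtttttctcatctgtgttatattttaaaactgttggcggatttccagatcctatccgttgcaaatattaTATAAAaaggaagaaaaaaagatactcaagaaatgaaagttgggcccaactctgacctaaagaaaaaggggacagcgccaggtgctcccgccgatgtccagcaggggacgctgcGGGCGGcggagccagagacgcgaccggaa
Psma7: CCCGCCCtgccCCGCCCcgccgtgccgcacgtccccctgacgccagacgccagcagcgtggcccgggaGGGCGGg
Psmb10: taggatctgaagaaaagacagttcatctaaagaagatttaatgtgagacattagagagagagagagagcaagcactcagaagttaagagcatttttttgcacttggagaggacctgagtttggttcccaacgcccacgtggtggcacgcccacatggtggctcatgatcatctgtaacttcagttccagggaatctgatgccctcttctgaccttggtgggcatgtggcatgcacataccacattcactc

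Of the 8 motifs, the Ets motif had the largest difference in share between the family's promoters and all promoters. It was found in the 250 bases before the TSS in 16 of the 49 members, or 32.7%, against 8.78% of the 21321 promoters of the same length. Cytosolic ribosomal protein genes, another large set of housekeeping genes, held it in 22.1%. The matches lay between 187 and 6 bases before the TSS. In the printed sequences it lies 47 to 41 bases before the TSS of Psmg3, 69 to 63 before that of Psmg1 and 107 to 101 before that of Psme3. It is absent from the windows of Psmb2 and Psmd6, which were also among the highest for Nsl1, and from those of Psmb8, Psmb9, Psmb10 and Psma7. The Psmd6 window ends in the motif without its last letter, and the base after it lay outside the search. The further promoters that hold the Ets motif belong to Psma6, Psma8, Psmc1, Psmc2, Psmc3, Psmc3ip, Psmc6, Psmd2, Psmd4, Psmd11, Psmd12, Psmd13 and Psme2b-ps.

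Over all tested TSSs the median Nsl1 ratio was 4.18 with the Ets motif and 1.88 without it. Over the members with enough reads it was 5.16 with it and 4.57 without it. The Msl1 medians of the members were 2.81 with it and 3.14 without it. Those of all tested TSSs went the other way, 2.92 with it and 2.12 without it. The other motifs were found in shares nearer to those of all promoters. Sp/Klf letters were found in 53.1% of the members and 41.6% of all promoters, the CRE in 12.2% and 7.35%, the antioxidant response element in 12.2% and 10.2%, NF-Y in 32.7% and 34.6%, the TATA box in 10.2% and 12.3%, Nrf1 in 4.08% and 2.86%, and Yy1 in none of the members and 1.09%. The promoters had a median GC content of 57.6%, against 55.2%, and a median ratio of observed to expected CpG of 0.772, against 0.527. The part of CpG content in the motif shares was not tested.

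The libraries differed in where the reads lay along the gene. In the mean profile of the 42 members outside the immunoproteasome, the tissue-specific subunits and the genes that are no proteasome part, Nsl1 had its maximum in the first 50 bases of the gene, at 10.3 times the local level, and Msl1 between base 250 and 300, at 5.13 times. Over all TSSs the maxima lay in the same bins, at 3.61 and 3.20 times. The members' profile stayed above the middle of its height over 400 bases for Nsl1 and 700 bases for Msl1, against 500 and 800 bases over all TSSs. Msl1 dipped just before the TSS, between a smaller upstream and a larger downstream rise, to 1.29 times between base -100 and -50. Over all TSSs Msl1 dipped in the same bin, to 1.32 times. In the first 50 bases, where Nsl1 was highest, Msl1 was at 1.74 times in the members and at 1.70 times over all TSSs.

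**Figure D2:**
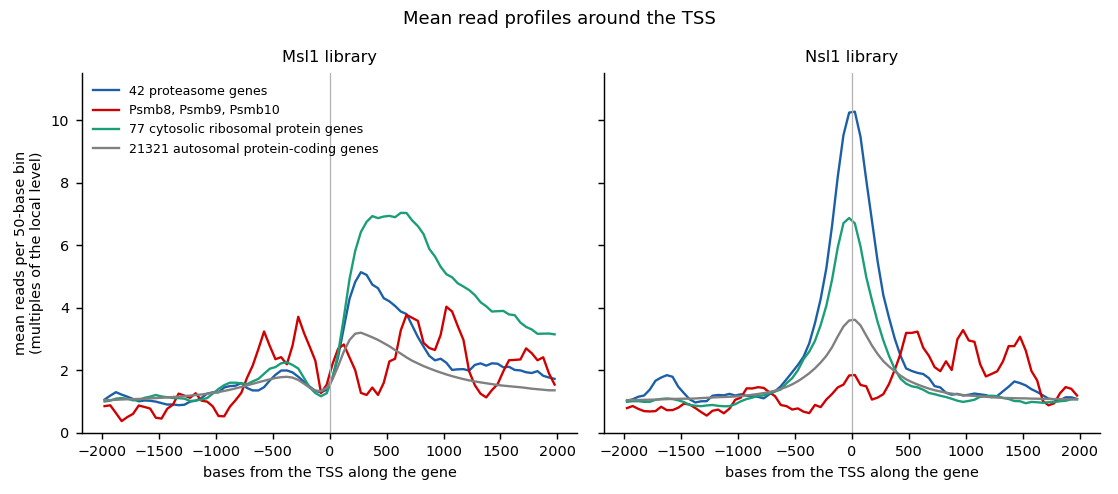
Mean number of reads per 50-base bin, as multiples of the local level, from 2000 bases upstream to 2000 bases downstream of the TSS in the Msl1 (left) and the Nsl1 library (right). Lines are the 42 proteasome genes, Psmb8, Psmb9 and Psmb10, 77 cytosolic ribosomal protein genes and all 21321 autosomal protein-coding genes; the Nsl1 line of the proteasome genes is highest at the TSS, at 10.3, and the Msl1 line downstream of it, at 5.13.

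Msl1 reads extended into the genes. From 500 to 2000 bases downstream, Msl1 was at least 2 times its local level in 31 of the 49 members, where 37.6% of all tested TSSs were. Nsl1 was so in 5 members, Psmb9, Psmb10, Psmc2, Psmd6 and Psmd14, against 4.54%. Summed over the 49 members, the downstream density was 0.8425 of the TSS density for Msl1 (95% interval 0.792 to 0.897) and 0.262 for Nsl1 (0.246 to 0.279). In the 42 members named above the shares were 0.849 and 0.240, and over all TSSs 0.820 and 0.472. The share was higher for Msl1 than for Nsl1 in 45 of the 49 members and in 68.9% of all tested TSSs. The 45 include Psme2b-ps and Psmf1, which fell below the minimum of reads and are not among the tested TSSs. The strongest Msl1 signals downstream were those of Psmd6 with 50 reads and a ratio of 5.825, Psmb4 with 79 reads and 5.02, and Psme4 with 85 reads and 3.98. Psmb11, Psmb5 and Psma8 had Msl1 ratios under 1 there, at 0.639, 0.707 and 0.946.

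The maximum of Msl1, the 50-base bin with the most reads between 1 kb upstream and 2 kb downstream, lay downstream of the TSS in 42 of the 47 members with enough reads, against 77.5% of all tested TSSs. Its median position was 325 bases downstream in the members and 275 bases over all tested TSSs. It lay in intron 1 in 25 members, against 43.7% of all tested TSSs, and in exon 1 in 7, against 23.7%. The maximum of Nsl1 lay at a median of 25 bases downstream, in exon 1 in 22 members, against 27.7% of all tested TSSs, and upstream in 20, against 43%. It was within 250 bases of the TSS in 38 members, against 48.9% of all tested TSSs, and that of Msl1 in 10 members, against 26.3%. At Psmg3 the Nsl1 maximum reached 45.6 times the local level 75 bases upstream, and the Msl1 maximum 7.61 times 575 bases downstream in exon 2. At Psmb2 the maxima were 41.1 times at 25 bases and 11.2 times at 225 bases, and at Psmg1 33.3 times at 125 bases upstream and 4.25 times at 525 bases downstream. Psmd6 had its Nsl1 maximum of 27.95 times at 25 bases and its Msl1 maximum of 14.7 times at 475 bases in intron 1.

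**Figure D3:**
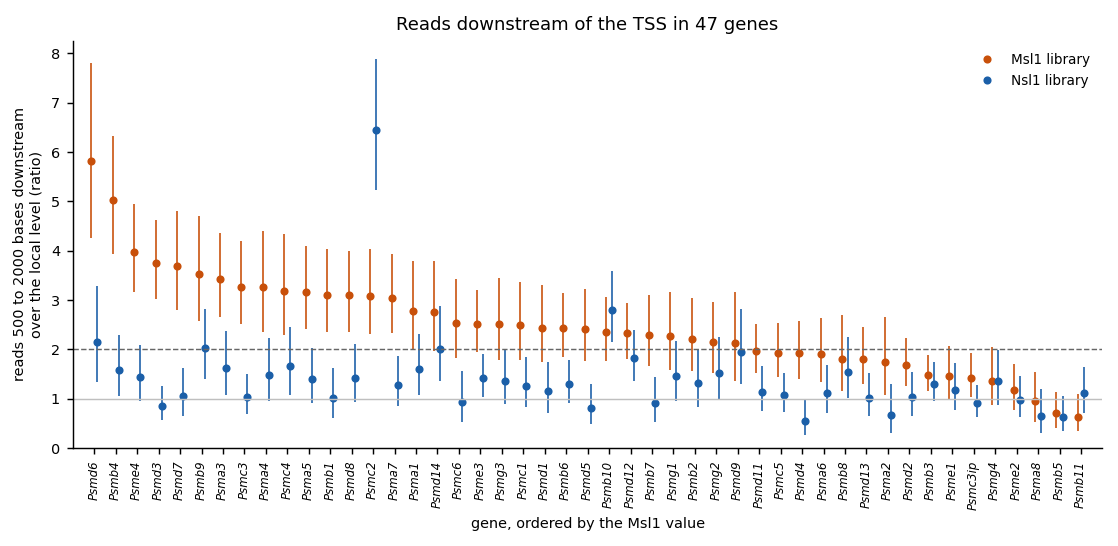
Reads from 500 to 2000 bases downstream of the TSS over the local level in the Msl1 and the Nsl1 library, for the 47 genes with enough reads, ordered by the Msl1 value. Bars are exact 95% intervals for counting error, and the dashed line marks 2; Msl1 is at or above it in 31 genes and Nsl1 in 5, of which Psmc2 is far above the rest at 6.446.

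Psmc2 and Psmb1 carried a further Nsl1 signal away from their TSS. At Psmc2 the window at the TSS held 96 Nsl1 reads, and the stretch from 500 to 2000 bases downstream held 107, a ratio of 6.446 (5.23 to 7.875). The highest Nsl1 bin of Psmc2 lay 1425 bases downstream in exon 2, at 24.5 times the local level, and the highest Msl1 bin 1675 bases downstream in intron 2, at 9.29 times. Among full transcripts, no other protein-coding start of Psmc2 and no start of another gene is annotated there. Incomplete transcripts, and Psmc2 transcripts that are not protein-coding, were not searched. Upstream of Psmb1, from 500 to 2000 bases, the Nsl1 ratio was 9.14. Tbp, the gene of the TATA-binding protein, starts there in the other direction, 1634 bases from the Psmb1 TSS, and had 150 Nsl1 reads and a ratio of 12.7 at its own TSS.

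A protein-coding gene starts in the other direction within 1 kb upstream at 7 of the 49 members, or 14.3%, against 7.49% of all TSSs. The pairs were Psma2 with Mrpl32 at 217 bases, Psma7 with Ss18l1 at 76, Psmc2 with Dnajc2 at 67, Psmc5 with Ftsj3 at 75, Psmd13 with Sirt3 at 603, Psme2 with Rnf31 at 607, and Psmg2 with Cep76 at 263. At these genes the reads of both promoters share a window. The maximum of Msl1 lay upstream, in the direction of the partner, at 4 of the 7, and that of Nsl1 at 3 of the 7. The same share over all TSSs with a partner was not counted. The Msl1 maximum lay 675 bases upstream at Psmc5 and 375 bases upstream at Psmd13. At Psmd13 this is between the starts of both genes. Another annotated start of Psmd13 lies upstream of this maximum, at position 148067867 of chromosome 7, with ratios of 2.43 for Msl1 and 4.29 for Nsl1. Of the 40 other members with enough reads, only Psmb9 had its Msl1 maximum upstream. The median Nsl1 ratio was 5.16 with a partner and 4.85 without one, and the median Msl1 ratio 3.155 and 2.84.

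To set the libraries against each other, the Msl1 reads per Nsl1 read at each TSS, per read of the library, were divided by the median of this value over all tested TSSs. The family leaned to Nsl1. The median of the 47 members was 0.642 (0.545 to 0.722 over genes). The value was at least 1.5 times below the median of all TSSs in 26 members, where 25.6% of tested TSSs were, and at least 1.5 times above it in 4, where 24.9% were. The lowest values were 0.247 (0.161 to 0.368) at Psmg1, 0.2925 (0.216 to 0.391) at Psme3 and 0.321 (0.228 to 0.446) at Psmg3. The highest were 3.895 (2.41 to 6.52) at Psma7, 2.34 (1.21 to 4.70) at Psmb8 and 2.02 (1.225 to 3.38) at Psma3, and Psmb9 was the remaining gene above 1.5. These values compare 2 libraries and not the amounts of the complexes.

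**Figure D4:**
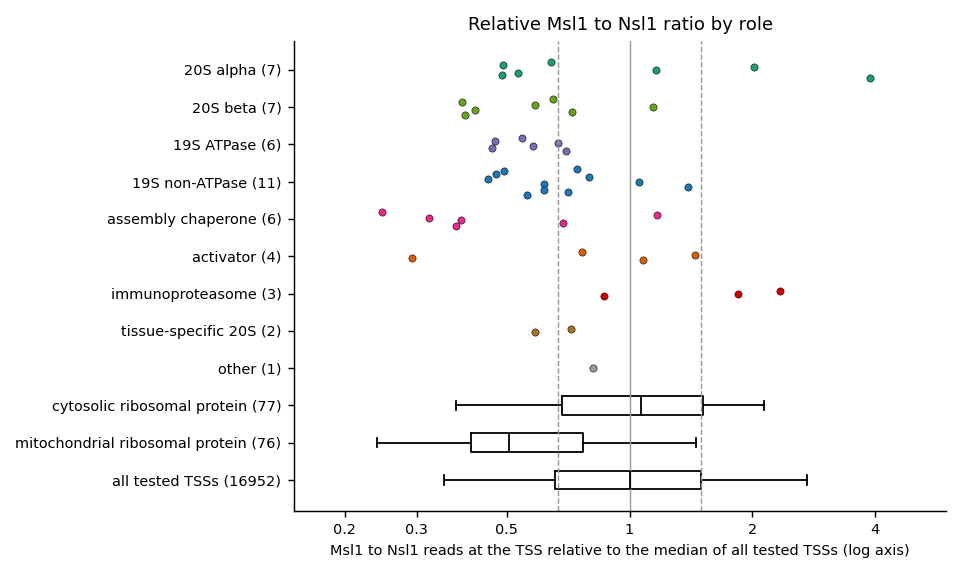
Msl1 to Nsl1 reads at the TSS relative to the median of all tested TSSs, on a log axis. Points are the 47 genes by role, boxes show quartiles and median of cytosolic and mitochondrial ribosomal protein genes and all tested TSSs with whiskers from the 5th to the 95th percentile, the solid line marks 1 and the dashed lines 1.5 times above and below. Most points lie left of 1, and those right of the upper dashed line are Psma7, Psmb8, Psma3 and Psmb9.

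The immunoproteasome genes were low for Nsl1 at the starts used for them, and at Psmb10 the Nsl1 density was higher further downstream. At these starts none of Psmb8, Psmb9 and Psmb10 was high for Nsl1, and the interval of each Nsl1 ratio includes 1. The Nsl1 maxima lay 575, 525 and 975 bases downstream, at 5.24, 3.78 and 4.70 times the local level. From 500 to 2000 bases downstream the Nsl1 ratios were 1.54 (1.01 to 2.25), 2.03 (1.41 to 2.82) and 2.80 (2.15 to 3.585), and the downstream shares were 1.2 (0.616 to 2.43), 1.26 (0.706 to 2.33) and 2.095 (1.27 to 3.605), of which that of Psmb10 alone has an interval above 1. Which starts these genes use in the cells was not measured. Psmb8, the counterpart of Psmb5, starts at position 34334735 of chromosome 17 and had 29 Msl1 and 15 Nsl1 reads. Its ratios were 3.16 (2.10 to 4.57) for Msl1, with the maximum 125 bases downstream in exon 1, and 1.28 (0.715 to 2.12) for Nsl1. The Msl1 interval of Psmb8 lies above that of Psmb5, and the Nsl1 intervals of the 2 genes overlap.

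Psmb9, the counterpart of Psmb6, starts at position 34324697 of chromosome 17 on the minus strand. It had 29 Msl1 and 19 Nsl1 reads, with ratios of 3.13 (2.08 to 4.52) and 1.60 (0.962 to 2.52), and both intervals overlap those of Psmb6. At another annotated start of Psmb9, 533 bases downstream, 25 Msl1 and 26 Nsl1 reads gave ratios of 2.67 (1.72 to 3.97) and 2.19 (1.43 to 3.23). It overlaps Tap1, a peptide transporter gene, which starts 199 bases inside Psmb9 in the other direction and had ratios of 3.325 for Msl1 and 2.105 for Nsl1. The Msl1 maximum of Psmb9 lay 575 bases upstream, in the direction in which Tap1 is read. Psmb10, the counterpart of Psmb7, starts at position 108462292 of chromosome 8 on the minus strand and had 15 Msl1 and 21 Nsl1 reads at its annotated TSS, with ratios of 0.926 (0.517 to 1.53) and 1.34 (0.825 to 2.05). The Nsl1 interval lies below that of Psmb7, 5.37 to 8.36, and the Msl1 intervals of both genes overlap. From 500 to 2000 bases downstream Psmb10 had 57 Msl1 and 66 Nsl1 reads, and the Msl1 ratio was 2.35 (1.77 to 3.06). The maxima of Psmb10 lay 1025 bases downstream in exon 4 for Msl1 and 975 bases downstream in intron 3 for Nsl1. No second start of a full protein-coding transcript of Psmb10 is annotated there, other transcripts were not searched, and a start there cannot be told from these reads. The promoter printed above, that of the annotated TSS, has a ratio of observed to expected CpG of 0.22 and none of the 8 motifs.

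The median Msl1 ratio of the 3 genes was 3.13, above the 2.205 of all tested TSSs. With the local level taken from 10 kb to 100 kb it was 2.07, below the 2.24 of all tested TSSs, and none of the 3 was high for Msl1, with 2.07 at Psmb8 and 2.08 at Psmb9. The Msl1 ratio of Psmb8 was also below the fold with all reads kept, at 2.97. Psmb8 and Psmb9 start 10038 bases apart, so each lies in the local level of the other. The median Nsl1 ratio was 1.34. Of 7 antigen processing genes chosen beside them, 6 were found in the annotation. Msl1 was high at Tap1, Irf1 (4.06) and Erap1 (5.07), and Nsl1 at Erap1 (3.84), while Tap2, Tapbp and B2m were below 3 in both libraries.

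**Figure D5:**
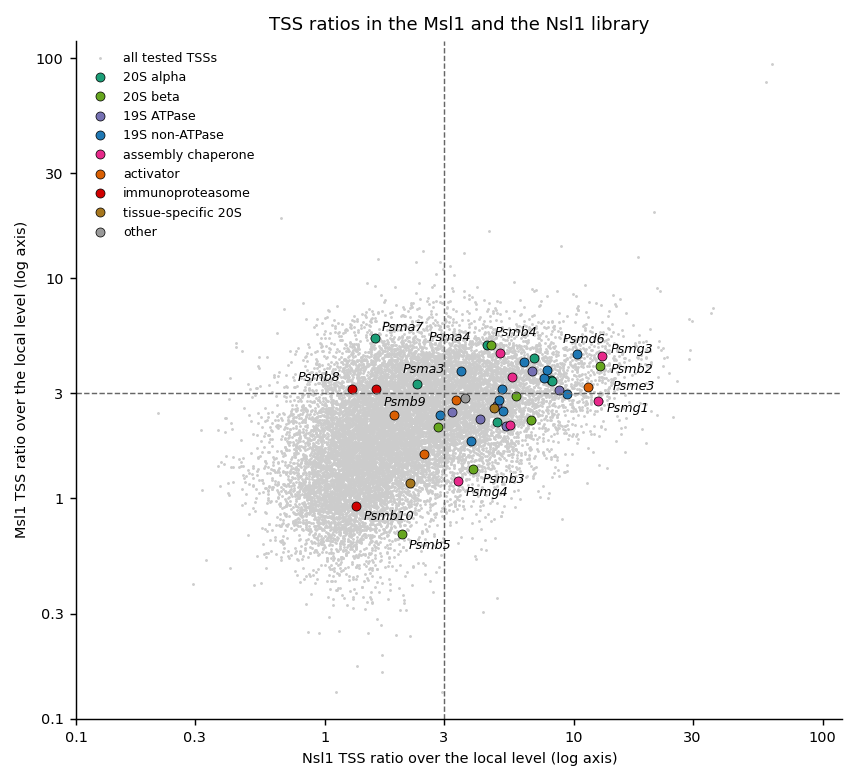
Msl1 TSS ratio against Nsl1 TSS ratio, on log axes, for the 47 proteasome genes by role and for all tested TSSs (grey). The dashed lines mark the fold of 3. Psma7, Psma3, Psmb8 and Psmb9 lie above the Msl1 line and left of the Nsl1 line, and 18 members lie in the opposite quadrant. Of the 16953 tested TSSs, 2471 were high for Msl1 alone and 2543 for Nsl1 alone.

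Nsl1 was also high at most genes of a list that act with the proteasome. Of 22 such genes, 21 were found in the annotation. Of these, 17 were high for Nsl1, against 29.6% of all tested TSSs, and 11 for Msl1, against 29.2%. Their medians were 3.79 for Nsl1 and 3.30 for Msl1. Pomp, the maturation factor of the core, had 6.155 for Nsl1 and 4.13 for Msl1. Shfm1 and Adrm1, parts of the cap whose symbols do not meet the rule, had 8.82 and 4.23 for Nsl1 and 2.97 and 0.973 for Msl1. The regulators Nfe2l1 and Nfe2l2 had 3.20 and 2.645 for Nsl1 and 2.15 and 2.37 for Msl1.

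Ribosomal protein genes served as sets of like housekeeping function. The 77 cytosolic ones had a median Nsl1 ratio of 3.54 (3.31 to 3.86), an interval that ends just under that of the proteasome genes, and a median Msl1 ratio of 3.51 (3.30 to 3.90). The downstream share of Msl1 was 1.355 in them, against 0.8425 in the proteasome genes, and the maximum of their mean Msl1 profile lay between base 600 and 650. The 76 mitochondrial ones were closer to the proteasome genes, with medians of 5.98 (5.08 to 6.61) for Nsl1 and 3.135 (2.87 to 3.46) for Msl1 and a median Msl1 to Nsl1 value of 0.506, against 1.065 in the cytosolic ones. These intervals treat genes as independent, which neighbouring and related genes are not.

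Within the family the ratios of the libraries went together only loosely. Across the 47 genes the log2 ratios had a Pearson correlation of 0.449 and a Spearman correlation of 0.432, and across all tested TSSs of 0.47 and 0.492. The points share the chromatin, the genome and the local level's position, and the values are descriptions across genes. The Nsl1 ratio of the members had a Spearman correlation of 0.394 with log2 gene length, against 0.248 in the 41 members with enough reads outside the immunoproteasome, the tissue-specific subunits and the other genes and 0.101 over all tested TSSs, and of 0.0378 with GC content of the promoter, against 0.141 over all tested TSSs. The Msl1 ratio of the members had 0.0926 with length and 0.192 with GC content, against 0.235 and 0.401 over all tested TSSs.

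Other choices of level and window move the ratios. With the mean of the genome in place of the local level, the difference between the libraries in the count of high members was lost: 42 members were high for Msl1, against 54.9% of all tested TSSs, and 42 for Nsl1, against 42.2%. With windows of 1000 bases on each side the median Nsl1 ratio of the members was 3.14, against 1.58 over all TSSs. With windows of 250 bases on each side, 15 members were high for Msl1, against 32.2% of all tested TSSs, a share near that of all TSSs, and 38 for Nsl1, against 52.1%. With 1000 bases these counts were 16, against 19.3%, and 26, against 14.3%.

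The calls that changed with the window are these. With 250 bases on each side, Psma1, Psma2, Psma3, Psma6, Psmc2, Psmc4, Psmd7, Psmd13, Psmd14 and Psme3 fell below the Msl1 fold, and Psma8, Psmc1 and Psmd4 reached it. In the Nsl1 library Psmb6 and Psmd11 reached the fold with this window and no member fell below it. With 1000 bases, Psma3, Psma6, Psmb8, Psmc2, Psmd13, Psmd14 and Psme3 fell below the Msl1 fold, and Psme4 reached it. The Nsl1 ratios of Psma4, Psmb3, Psmc1, Psmc3, Psmc3ip, Psmd4, Psmd7, Psmd8, Psme4 and Psmg4 lay below the fold with this window.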

How the data were processed

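Single-end ChIP-seq reads of wt mESCs were analysed, 1 library per antibody. The authors aligned unique reads to mm9 with Bowtie 0.12.7 and deposited the position, strand and an alignment score of every read; the deposited score is 255 on every line and was not used. The Input used in the study was not used here.

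In Python 3.11.15 (scipy 1.17.1, numpy 2.4.6, pandas 2.3.3), 1 read per position and strand was kept on nuclear chromosomes and moved by 108 bases (Msl1) or 66 bases (Nsl1), from the strand cross-correlation. The TSS of a gene was the start shared by most full protein-coding transcripts of GENCODE vM1 on mm9, another release than the study's. Starts within 50 bases were joined. Of starts with equal support, transcripts tagged as consensus coding sequence (CCDS) came first, and then the most upstream. Figures were drawn with matplotlib 3.10.9. Maxima and profiles used reads extended to 200 bases. Counting and intervals were tested on simulated reads, drawn as Poisson counts over an even background. Such reads check the computation and cannot show how well the intervals suit these libraries.

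Every member is named with both ratios. Reads and intervals are given for the 5 highest and lowest in each library, the 3 at each end of the Msl1 to Nsl1 value and the immunoproteasome genes. The members, roles and lists were chosen with earlier results of these data known. The depth gives between 2 and 74 Msl1 and between 3 and 240 Nsl1 reads per TSS window. No p-value is given, and 9 alternatives and 1 added later were tried.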

Additional observations from a re-analysis of the deposited data

How the results depend on the processing

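No ratio called high fell below 1 under the 9 alternatives. Among single members, the Msl1 ratios of Psmb7 and Psmd8 fell below 1 with a window of 250 bases, at 0.783 and 0.4565. The most upstream TSS put the Msl1 ratio of Psme1 at 0.869 and the Nsl1 ratio of Psmb8 at 0.942. The Msl1 ratio rose above 1 for Psmb10, to 1.14 with a window of 1000 bases and 1.97 with the genome level, and for Psmb5, to 1.445 with the genome level. At its most upstream TSS, Psma6 had ratios of 1.01 for Nsl1 and 1.54 for Msl1, outside both intervals. A window of 250 bases gave a median Nsl1 ratio of 6.54, downstream shares of 0.991 for Msl1 and 0.182 for Nsl1, and a median Msl1 to Nsl1 value of 0.503. A window of 1000 bases gave a median Nsl1 ratio of 3.14. The genome level gave median ratios of 4.86 for Msl1 and 6.79 for Nsl1, against 3.28 and 2.67 over all tested TSSs. It put 42 members high in each library, against 54.9% of all tested TSSs for Msl1 and 42.2% for Nsl1. The difference in count between 36 and 22 was thus lost. The local level from 10 kb to 100 kb gave a median Msl1 ratio of 2.07 for the immunoproteasome genes, below the 2.24 of all tested TSSs, and none of the 3 was high for Msl1. A downstream window from 1000 to 2000 bases gave shares of 0.7075 for Msl1 and 0.244 for Nsl1. The other medians and shares of the family stayed within their intervals, and the counts within 1.5 times, with all reads kept, the most upstream TSS, no read shift and no minimum of reads. The other start of Psmf1, chosen after seeing the data, left the medians at 2.96 for Msl1 and 4.96 for Nsl1. Of 344 values of single members in each library, 56 Msl1 and 97 Nsl1 values left the interval of the main value. The cause of these moves was not tested. No paired analysis was possible because each antibody has 1 library, and for the same reason no replicate could be left out. Depth limits the ratios most where windows hold few reads, as the 11 Msl1 reads of Psmb5.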

Other observations

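Psmd10, a chaperone of the 19S base on chromosome X, lies outside the autosomal rule. Its TSS window held 10 Msl1 and 32 Nsl1 reads, with ratios of 2.655 (1.26 to 4.94) and 7.27 (4.91 to 10.4), so that Nsl1 was above the fold of 3 and Msl1 below it.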
